A study of Homo sapiens with 6 samples.

Results

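Cadherins are calcium-dependent adhesion proteins that join neighbouring cells through repeated extracellular domains. The genes described here are the listed cadherins (Cdh), desmosomal cadherins (Dsg and Dsc), protocadherins (Pcdh), the polarity cadherins Celsr and the giant cadherins Fat, chosen by their symbols and leaving out Cdh1 and Cdh2. They made up 78 of the 22989 genes of the count table. The RNA came from MDA-MB-231 PTX-resistant BCSC, with 3 libraries of LINC00115 KD cells and 3 of WT cells. PTX is paclitaxel, and BCSC are breast cancer stem-like cells, which the study sorted for high aldehyde dehydrogenase activity from MDA-MB-231, an established line of human breast cancer of the triple-negative kind. KD cells carried a short hairpin RNA (shRNA) against the long non-coding RNA LINC00115, which the study delivers with a virus. KD samples are described as sh115-1, sh115-2 and sh115-3. The study names 2 hairpins, sh115-1 and sh115-2, and describes its expression comparison as made with sh115-2, so the labels alone do not settle which hairpin each library carried. They call the controls WT, while the study's methods use a control shRNA elsewhere. Nothing says that the 3 libraries of a group came from separate cultures, so the p-values given measure the spread between these libraries only, which may be technical.

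Classical cadherins bind cells of the same kind to each other and are tied to the actin cytoskeleton by catenins. Desmosomal cadherins anchor keratin filaments in epithelia, and Fat and Celsr proteins act in planar cell polarity, the alignment of cells within a sheet. Clustered protocadherins (Pcdha, Pcdhb and Pcdhg) lie in tandem arrays of similar genes and are best known for giving single neurons a molecular identity. Cadherin-1 and cadherin-2 switches are a hallmark of epithelial-mesenchymal transition, and other cadherins are markers of single tissues such as endothelium (Cdh5), kidney tubule (Cdh16) and intestine (Cdh17).

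Symbols are printed as the table gives them, in mouse style. Of its 22989 genes, 4650 have names of Gm and a number and 1129 have names ending in Rik, both forms of mouse gene naming. Whether the reads are human or mouse was not tested. Of the 78 members, 0 are written as a human symbol, 70 equal one apart from case, and 8 (Dsg1a, Dsg1b and Pcdhb17 to Pcdhb22) equal none. No gene is listed as LINC00115, so the knockdown was not checked here and each direction rests on the group labels. The libraries held 36979221 to 38799331 counts. Each library had 7093 counts or more of the mesenchymal markers of such cells Vim, Cd44, Axl and Plau. Of the aldehyde dehydrogenases behind the sort, Aldh1a3 had at most 4 counts and Aldh1a1 8 to 52. Epcam, an epithelial marker, had at most 5. The lung epithelium markers stood apart between the groups: their summed level was 1.57 to 1.88 normalized CPM (counts scaled to a common library size, so that libraries can be compared) in the WT libraries and 73.3 to 84.3 in the KD libraries, and 8 of 8 were higher. Leukocyte markers (2 of 4 tested higher, 0 lower) summed to 71.4 to 84.8 normalized CPM in WT and 140 to 155 in KD, and luminal epithelium markers (2 of 3 higher, 0 lower) to 16.8 to 19.1 and 31.2 to 31.8. Fibroblast markers (2 of 4 lower, 0 higher) summed to 175 to 193 in WT and 76.6 to 78.6 in KD, and markers of neurons and glia (1 of 4 higher, 1 lower) to 18.7 to 20.4 and 30.8 to 33.7. A few genes held most of each of these sums. Scgb1a1 alone held 39.2 to 48.5 of the lung sum in KD and had 0 counts in WT, where Napsa held 0.956 to 1.14. Pdgfra alone held 169 to 188 of the fibroblast sum in WT and 72.9 to 75.6 in KD, while Postn rose from 0 counts to 11, 10 and 9. Cd68 and S100a8 held most of the leukocyte sum, with Ptprc at 5 to 13 counts. Erbb2 held most of the luminal sum and Map2 most of the neuronal and glial sum. The control library WT 3 also held counts of keratinocyte markers such as Krt5 that were at 0 elsewhere, and the desmosomal cadherins followed it, as given below.

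The comparison of KD with WT asks which of these adhesion genes change with the knockdown. Of the 78 members, 28 passed the filter on low counts and were tested, and 50 did not. Calls of lower or higher were made with the quasi-likelihood test of edgeR and needed both an adjusted p below 0.05 and a difference of more than 2-fold, as the study used. On that rule 7 members were lower and 6 were higher in KD, beside 9.98% lower and 10.2% higher among all 13497 genes tested. With no threshold on the fold change, 9 members were lower and 9 higher, beside 36.7% lower and 36.7% higher among all genes. Every KD library lay below every WT library for 11 members and above for 9, beside 37.8% and 37.8% of all genes tested, and the groups overlapped for 8. Of the members tested, 14 reached the filter's level, which had to be met in any 3 libraries, in fewer than 3 libraries of a group. Of these, Cdh16, Pcdh9 and Pcdh10 met it in no WT library and Pcdhb19 in no KD library, so that these 4 had to be high in the other group to be tested at all. The 14 hold 10 of the 13 calls, and the other 14 members, which reached it in all 6 libraries, hold 3 (Cdh17, Fat2 and Pcdhb17). The median log2 fold change was −0.06 over the members tested and −0.01 over all genes tested.

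**Figure D1:**
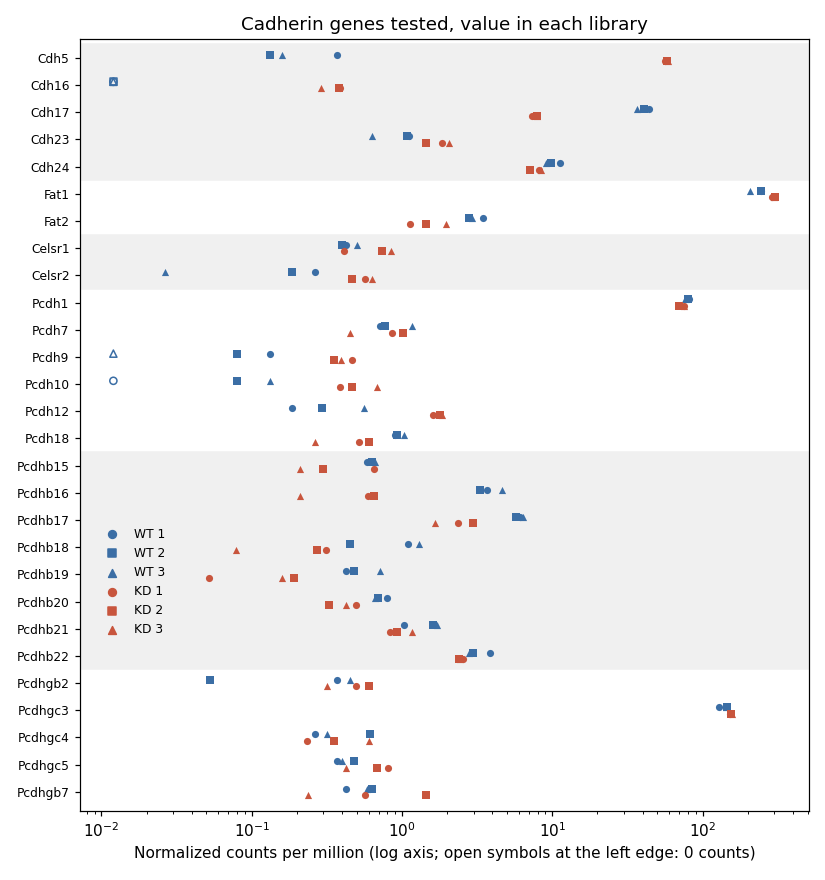
Normalized CPM (log axis) of the 28 cadherin genes tested, 1 point per library, with WT in blue and KD in red and the replicate number as the marker shape. Open symbols stand for 0 counts. Cdh5 lies near 0.2 in WT and near 58 in KD, Cdh17 moves from about 40 to about 8, and Fat1, Pcdh1 and Pcdhgc3 sit at similar levels in both groups.

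The largest fold change fitted among the members was that of Cdh5, VE-cadherin, the adhesion protein of endothelial junctions. It had 14, 5 and 6 counts in the WT libraries and 2175, 2136 and 2243 in the KD libraries. All 3 KD libraries were close together and far above every WT library. In normalized CPM it rose 258-fold, from 0.221 ± 0.131 in WT to 57.8 ± 1.45 in KD (SD, n = 3 each) (log2 fold change 8.01, standard error 0.14, adjusted p = 4.86e-32). Without WT 1 the log2 fold change was 8.60. The endothelial markers had at most 33 counts in any library. Pecam1, the endothelial adhesion protein CD31, had 11, 6 and 9 counts in WT and 19, 7 and 11 in KD. Kdr, a VEGF receptor, had at most 10 counts in any library, Tek, the angiopoietin receptor, at most 2, and Emcn at most 1. Summed over the 8 endothelial markers the level was 0.982 to 1.14 normalized CPM in WT and 1.81 to 1.95 in KD, and of the 3 tested 1 was called higher (Esam) and 1 lower (Tie1). Cldn5 and Robo4, at 0 in WT, had 9, 9 and 18 and 12, 8 and 5 counts in KD.

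Pcdh12, a protocadherin also found at endothelial junctions, rose as well. It had 7, 11 and 21 counts in WT and 62, 66 and 70 in KD, with no overlap between the groups, a 5.04-fold increase (log2 fold change 2.33, standard error 0.43, adjusted p = 1.32e-05).

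Cdh16, the kidney-specific Ksp-cadherin, had 0 counts in every WT library and 15, 14 and 11 in KD. Against a limit of 3 counts per library it was at least 4.44-fold higher (adjusted p = 4.09e-05). Markers of kidney tubule moved with it. Of 8 listed, 7 were tested, 5 were called higher and 0 lower (Cubn, which takes up filtered proteins, fell by less than 2-fold), and their summed level was 9.24 to 9.64 normalized CPM in WT and 24.0 to 28.2 in KD. Cubn alone held 8.12 to 8.36 of the sum of these markers in WT and 5.86 to 6.49 in KD. In KD, Kap held 8.47 to 12.0 of it and Slc34a1 3.05 to 4.21. Kap, Umod, Slc22a6 and Aqp2 were at 0 in every WT library, and Kap reached 466, 311 and 410 counts in KD. The part of these kidney markers, and of the lung markers above, in the Cdh16 and Cdh5 results was not tested. In bulk RNA, fewer cells of a type and less RNA per cell cannot be told apart.

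**Figure D2:**
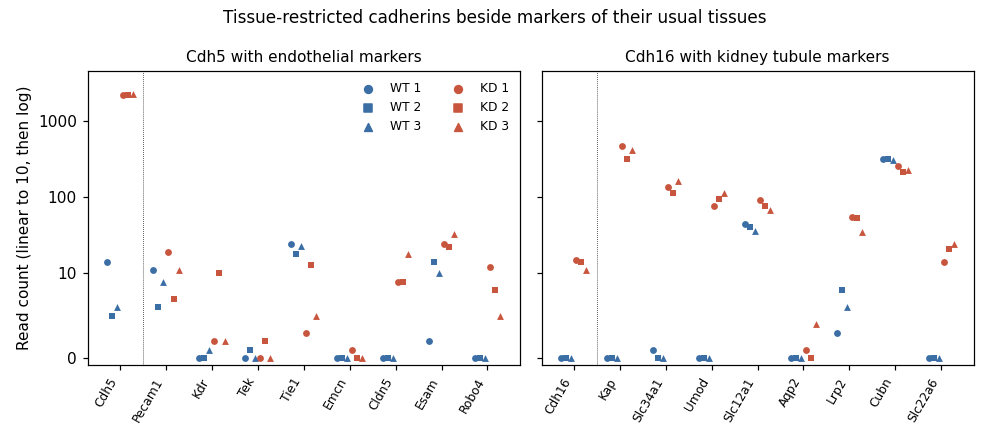
Read counts per library (linear up to 10, then a log axis) of Cdh5 beside 8 endothelial markers (left) and of Cdh16 beside 8 kidney tubule markers (right), with WT in blue and KD in red. Cdh5 stands at 2136 to 2243 counts in KD while no endothelial marker exceeds 33, and Cdh16 is at 11 to 15 counts in KD beside Kap at 311 to 466.

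Cdh17, the liver-intestine cadherin, fell. It had 1671, 1530 and 1379 counts in WT and 282, 289 and 302 in KD, so that every KD library was far below every WT library. The normalized CPM went from 40.5 ± 3.93 in WT to 7.70 ± 0.361 in KD (SD, n = 3 each), 5.25-fold lower (log2 fold change −2.39, standard error 0.09, adjusted p = 7.07e-23), and no single library moved the log2 fold change outside −2.46 to −2.32. Cdh24, a cadherin that binds catenins, had 427, 372 and 346 counts in WT and 315, 262 and 322 in KD. It fell by less than 2-fold (log2 fold change −0.35, standard error 0.12, adjusted p = 0.0116), and did not pass the test without WT 1 (adjusted p = 0.0863) or KD 2 (adjusted p = 0.0737). Cdh23, a component of the tip links of sensory hair cells, had 42, 41 and 24 counts in WT and 71, 53 and 78 in KD. It rose, also by less than 2-fold (log2 fold change 0.91, standard error 0.36, adjusted p = 0.0223), but did not pass the test without WT 3 (adjusted p = 0.102), KD 1 (0.0564) or KD 3 (0.0857), and was over 2-fold without WT 1, WT 2 or KD 2.

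The other 9 Cdh genes were not tested and had at most 8 counts in any library. Cdh3 (P-cadherin) had 0, 2 and 1 counts in WT and 8, 0 and 6 in KD. Cdh11, the mesenchymal OB-cadherin, had 0, 3 and 1 and 1, 6 and 2 counts. Cdh13 (T-cadherin), which is held by a lipid anchor, had 0, 0 and 1 and 3, 7 and 6 counts. Cdh19 had none. Of the genes outside the group, Cdh1 (E-cadherin) had 2, 1 and 3 counts in WT and 22, 30 and 31 in KD, and Cdh2 (N-cadherin) at most 2 in any library.

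Among the Fat genes, giant cadherins that act in planar polarity and Hippo signaling, Fat1 held 41.3% to 48.9% of all counts of the 78 members. Fat1 had 9270, 9253 and 7868 counts in WT and 11178, 11218 and 11309 in KD, with every KD library above every WT library. It rose by less than 2-fold, from 233 ± 21.6 to 297 ± 8.30 normalized CPM (log2 fold change 0.35, standard error 0.04, adjusted p = 8.92e-09). Fat2 moved the other way, with 130, 106 and 110 counts in WT and 44, 53 and 74 in KD. It fell 2.02-fold (log2 fold change −1.02, standard error 0.27, adjusted p = 0.00107), close to the threshold, and was under 2-fold without WT 1 (−0.92), KD 1 (−0.84) or KD 2 (−0.98). Fat3 had at most 5 counts in any library and Fat4 at most 1. The Dachsous genes Dchs1 and Dchs2, which code for ligands of Fat proteins, had at most 2 and at most 8 counts.

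The Celsr genes are receptors of the core planar polarity complex. Celsr2 had 10, 7 and 1 counts in WT and 22, 17 and 24 in KD, and was called higher (log2 fold change 1.78, standard error 0.62, adjusted p = 0.0110). WT 3 has the lowest count, and without it the call was lost (log2 fold change 1.29, adjusted p = 0.0962). Celsr1 had 16, 15 and 19 counts in WT and 16, 27 and 32 in KD, overlapping groups that did not pass the test (log2 fold change 0.58, standard error 0.49, adjusted p = 0.288). Celsr3 had at most 4 counts and was not tested.

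The non-clustered protocadherins split. Pcdh1, found at epithelial junctions of the airway, had 3077, 3033 and 2894 counts in WT and 2895, 2557 and 2882 in KD. In normalized CPM each KD library lay below each WT library. Its small decrease passed the test (log2 fold change −0.11, standard error 0.05, adjusted p = 0.0347), but not without WT 1, WT 2, KD 1 or KD 2 (adjusted p = 0.0600 to 0.248), nor with DESeq2 (adjusted p = 0.0859). Pcdh9 had 5, 3 and 0 counts in WT and 18, 13 and 15 in KD, and its log2 fold change was 2.46 (standard error 0.76, adjusted p = 0.00410). Pcdh10, known for its part in axon growth, had 0, 3 and 5 counts in WT and 15, 17 and 26 in KD, and its log2 fold change was 2.80 (standard error 0.73, adjusted p = 0.000965). Both were called higher with no overlap between the groups. Their sizes rest on few WT counts, since Pcdh9 moved to 3.25 without WT 1 and Pcdh10 to 3.58 without WT 3. Pcdh18 had 34, 35 and 39 counts in WT and 20, 22 and 10 in KD. It was called lower (log2 fold change −1.05, standard error 0.47, adjusted p = 0.0433), but not with DESeq2 (adjusted p = 0.0610), with the replicate block (0.0622), or without WT 1, WT 2, WT 3, KD 1 or KD 3 (0.0659 to 0.176). Pcdh7 had 27, 29 and 44 counts in WT and 33, 37 and 17 in KD, and did not pass the test (log2 fold change −0.20, standard error 0.44, adjusted p = 0.693). Pcdh15, a hair cell protein that pairs with Cdh23, had 0 counts in WT and 7, 6 and 4 in KD and was not tested.

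**Figure D3:**
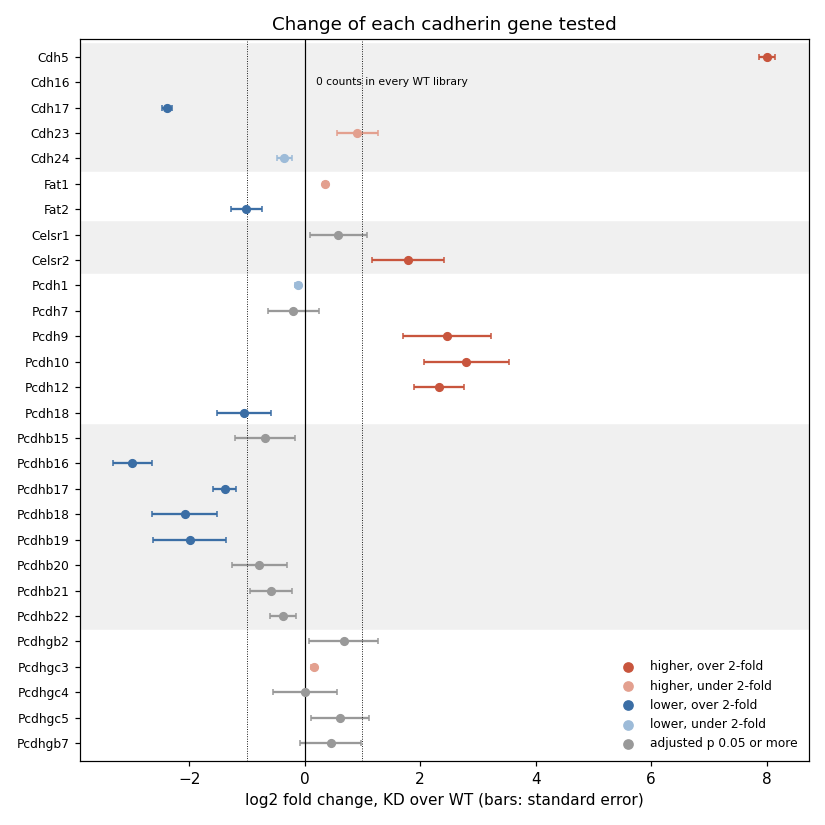
Log2 fold change of KD over WT with its standard error for 27 of the 28 cadherin genes tested, coloured by the call, with dotted lines at a fold change of 2. Cdh16 is named without a point because it had 0 counts in every WT library. Cdh5 stands alone at 8.01, and the points of the Pcdhb genes lie at or below −0.38.

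In the Pcdhb cluster every call was of a lower level in KD. Over its 19 genes the libraries held 677, 644 and 734 counts in WT and 317, 298 and 261 in KD, or 18.2 ± 1.19 and 7.73 ± 0.743 normalized CPM (SD, n = 3 each), 2.35-fold lower in KD. Each KD library lay below each WT library. This sum does not depend on how the reads counted were split between the genes of the cluster. It may depend on whether reads that match several of them were counted, which is not stated. Of the 8 Pcdhb genes tested, 4 were called lower, 4 did not pass the test and 0 were higher. Among all genes tested, 9.98% were called lower and 10.2% higher. Of the genes called, Pcdhb16 and Pcdhb18 reached the filter's level in fewer than 3 KD libraries and Pcdhb19 in none. Their testing thus relied on WT libraries, where they are high. The median log2 fold change of the 8 was −1.09.

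Pcdhb16 fell most, from 138, 124 and 176 counts in WT to 23, 24 and 8 in KD, 7.92-fold (log2 fold change −2.99, standard error 0.33, adjusted p = 6.77e-10). Pcdhb17 had 230, 217 and 242 counts in WT and 91, 109 and 63 in KD (log2 fold change −1.39, standard error 0.20, adjusted p = 1.89e-07). Pcdhb18 had 41, 17 and 49 in WT and 12, 10 and 3 in KD (log2 fold change −2.08, standard error 0.56, adjusted p = 0.00123). Their groups did not overlap, although WT 2 came near the KD libraries for Pcdhb18. Pcdhb19 had 16, 18 and 27 counts in WT and 2, 7 and 6 in KD (log2 fold change −1.99, standard error 0.63, adjusted p = 0.00500).

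The other Pcdhb genes tested had smaller fitted changes, all below 0. Pcdhb22 had 145, 112 and 106 counts in WT and 99, 88 and 93 in KD (log2 fold change −0.38, standard error 0.23, adjusted p = 0.139). Pcdhb20 and Pcdhb21, with log2 fold changes of −0.79 and −0.58, did not pass the test either (adjusted p = 0.142 and 0.151), and nor did Pcdhb15 (−0.69, adjusted p = 0.229). The makeup of the cluster's counts differed between the groups. Pcdhb16 held 21.2% ± 2.47 of them in WT and 6.12% ± 2.68 in KD (SD, n = 3 each), Pcdhb17 33.5% ± 0.518 and 29.8% ± 6.29, and Pcdhb22 17.8% ± 3.50 and 32.1% ± 3.15. The groups of 3 libraries did not overlap for Pcdhb16 and Pcdhb22 and did for Pcdhb17. The 11 Pcdhb genes not tested had at most 25 counts in any library, the highest being Pcdhb14 with 4, 25 and 12 counts in WT and 6, 0 and 5 in KD, which was called lower without WT 1 or KD 1. Genes of the cluster are near copies of each other, and the counting of reads that match several of them is not stated, so values of single Pcdhb genes are uncertain.

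**Figure D4:**
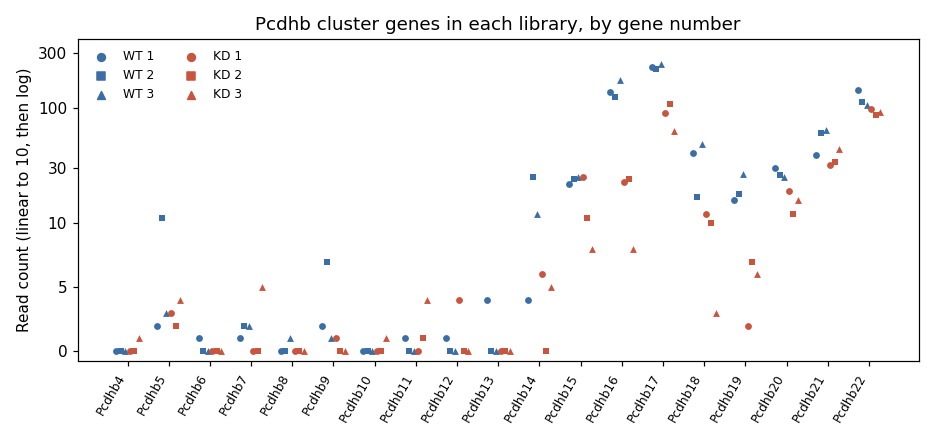
Read counts per library (linear up to 10, then a log axis) of the 19 Pcdhb genes in order of gene number, with WT in blue and KD in red. Pcdhb16 to Pcdhb19 are lower in every KD library than in every WT library, while Pcdhb4 to Pcdhb13 hold at most 11 counts in any library.

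The Pcdhg cluster behaved differently. Its 20 genes held 142 ± 8.98 normalized CPM in WT and 158 ± 2.78 in KD, and Pcdhgc3, a C-type isoform, held 97.5% to 98.3% of the cluster's counts in every library. Pcdhgc3 had 4842, 5465 and 5393 counts in WT and 5862, 5664 and 5997 in KD, and rose by less than 2-fold (log2 fold change 0.16, standard error 0.04, adjusted p = 0.00137). Without Pcdhgc3 the cluster held 111, 126 and 111 counts in WT and 136, 144 and 103 in KD, ranges that overlap. Pcdhgc4, Pcdhgc5, Pcdhgb2 and Pcdhgb7 did not pass the test (adjusted p = 0.999, 0.272, 0.310 and 0.451). Pcdhgc5 had 14, 18 and 15 counts in WT and 31, 25 and 16 in KD, and Pcdhgb7 16, 24 and 22 in WT and 22, 53 and 9 in KD. The other 15 had at most 17 counts in any library. Isoforms of this cluster share their last exons, and how reads on them were assigned is not stated, so the share of Pcdhgc3 may depend on the counting. The Pcdha cluster is listed with 1 gene, Pcdha9, which had 1 count in 1 KD library.

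The 7 desmosomal cadherin genes were not tested, and 1 control library held most of their counts. They summed to 0, 0 and 52 counts in WT 1, WT 2 and WT 3 and to 3, 6 and 4 in KD. In WT 3, 6 of the 7 had counts: Dsc2 had 18, Dsc3 11, Dsg1a 7, Dsc1 6, Dsg3 6 and Dsg1b 4. Dsg2, the desmoglein of simple epithelia, had none in WT and 1, 0 and 3 in KD. Some keratinocyte markers stood apart in the same library. Krt5, a keratin of basal keratinocytes, had 92 counts in WT 3 and 0 in the other 5 libraries, Lor, a protein of the cornified envelope, 52 against 0, and Krt14 192 against 7 to 31. Krtdap and Krt1 had 6 and 2 counts in WT 3 and 0 in the other libraries. Trp63, Ivl and Krt10 did not stand apart in WT 3. Trp63 had 6, 15 and 11 counts in WT and 34, 36 and 39 in KD. Ivl had 0, 2 and 0 in WT and 7, 3 and 7 in KD, and Krt10 71, 90 and 95 and 90, 47 and 59. Over the 8 keratinocyte markers the summed level was 11.9 normalized CPM in WT 3 and 2.23 to 4.19 in the other libraries. Of the 3 tested 1 was called lower (Krt14) and 1 higher (Trp63). Their part in the desmosomal counts was not tested. The summed desmosomal level in KD minus that in WT was −0.343 normalized CPM with all libraries and 0.115 without WT 3, so no difference between KD and WT can be read from it.

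**Figure D5:**
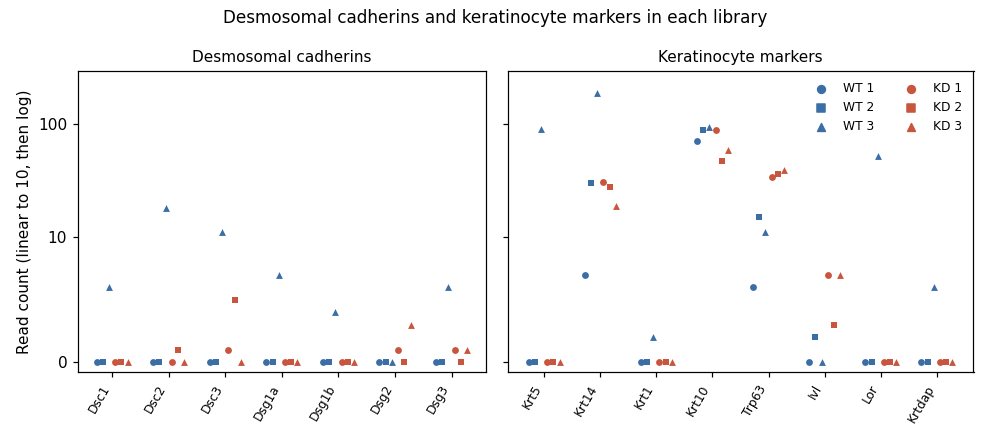
Read counts per library (linear up to 10, then a log axis) of the 7 desmosomal cadherins (left) and 8 keratinocyte markers (right), with WT in blue and KD in red. Blue triangles, which mark WT 3, stand above the other libraries for 6 of the 7 desmosomal genes and for Krt5, Krt14, Lor, Krtdap and Krt1.

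Genes that work with cadherins were described from 8 lists of 84 genes, of which 61 were tested. At the same thresholds, 6 were lower and 6 higher, beside the 9.98% and 10.2% of all genes, and 21 and 27 with no fold threshold, beside 36.7% each way. These counts lie near the shares over all genes, and the median log2 fold change was 0.12. Of the catenins and plakophilins, which link cadherins to the cytoskeleton, 11 were tested, 1 was called lower and 1 higher. With no fold threshold 3 of them were lower and 5 higher, beside 36.7% each way of all genes, and their median log2 fold change was 0.04. Ctnnb1 (β-catenin) fell by less than 2-fold (log2 fold change −0.40, adjusted p = 5.35e-14), as did Ctnnd1 (p120 catenin), which keeps cadherins at the cell surface (−0.77, adjusted p = 3.23e-21). Ctnnal1, an α-catenin-like protein, was called lower (−1.15, adjusted p = 9.97e-23) and Ctnnd2 (δ-catenin) higher (2.76, adjusted p = 1.05e-09), with 39, 12 and 26 counts in WT and 143, 143 and 239 in KD. Ctnnd2 ranged from 2.42 to 3.19 with each library left out.

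Of the genes listed with desmosomes, 6 were tested, 1 was called higher and 1 lower. Ppl (periplakin), a plakin that binds keratin filaments, rose (log2 fold change 1.55, adjusted p = 1.67e-23), and the keratins Krt8 and Krt18 rose by less than 2-fold (0.67 and 0.87, adjusted p = 1.38e-19 and 6.67e-21). Krt14 was called lower (−1.55, adjusted p = 0.0159), but its log2 fold change was 0.49 (adjusted p = 0.497) without WT 3. It was also not past the threshold without KD 2 (adjusted p = 0.0545) or KD 3 (adjusted p = 0.0760), or with DESeq2 (adjusted p = 0.267).

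Among partners of Fat and Celsr in planar polarity, 9 were tested, 2 were called lower and 3 higher. Vangl2 and Fzd3, a membrane protein and a Frizzled receptor of the core complex, were lower (log2 fold changes −1.45 and −1.12, adjusted p = 3.36e-08 and 3.70e-08), although Fzd3 was under 2-fold without KD 3 (−0.99). Prickle1 and Prickle2, cytoplasmic members of that complex, and the receptor Fzd6 were higher (1.83, 3.38 and 1.14, adjusted p = 1.76e-14, 3.24e-05 and 1.06e-19). Vangl1 rose by less than 2-fold (0.55, adjusted p = 5.68e-13) and Dvl1 did not pass the test (0.08, adjusted p = 0.126), though it did without KD 2 (0.13, adjusted p = 0.0193). Prickle2 had 4, 0 and 5 counts in WT and 47, 21 and 30 in KD.

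Of the proteases that cut cadherins, 8 were tested, 2 were called lower and 0 higher. Mmp9 fell 5.87-fold (log2 fold change −2.55, adjusted p = 8.23e-31) and Mmp3 2.15-fold (−1.10, adjusted p = 1.58e-24). Adam10, the main sheddase of several cadherins, fell by less than 2-fold (−0.44, adjusted p = 1.45e-12). Of the nectins and afadin, another adhesion system at the same junctions, 0 of 4 tested were called. Afdn rose by less than 2-fold (0.38, adjusted p = 1.00e-11), and Nectin2 fell (−0.18, adjusted p = 0.00609), though not past the test without WT 3 (adjusted p = 0.0699) or KD 2 (0.0706).

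Regulators of the protocadherin clusters, such as CTCF, cohesin and DNA methylation enzymes, were all tested (18 genes). At an adjusted p under 0.05, 7 were lower and 7 higher, beside 36.7% lower and 36.7% higher among all genes tested. Dnmt3b, a DNA methyltransferase, was the 1 gene called (log2 fold change 1.80, adjusted p = 3.25e-08), with 39, 60 and 64 counts in WT and 167, 226 and 173 in KD. Those with the most counts, Rad21 and Hnrnpu, did not pass the test (−0.01 and 0.03, adjusted p = 0.762 and 0.448). Setdb1, the histone methyltransferase the study concerns, fell by less than 2-fold (−0.22, adjusted p = 2.46e-05). Of the transcription factors that repress cadherin-1 in epithelial-mesenchymal transition, 0 of 4 tested were called. Snai1 fell (−0.85, adjusted p = 7.14e-14) and Zeb2 rose (0.43, adjusted p = 6.78e-11), both by less than 2-fold. Of the cadherin-related genes outside the group, Clstn1 (calsyntenin) was the 1 tested and fell by less than 2-fold (−0.42, adjusted p = 1.63e-13), and the one with the next most counts, Cdhr4, had a mean of 0.0884 normalized CPM in WT and 0.340 in KD.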

How the data were processed

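The authors trimmed adapters, aligned reads with HISAT2 (hg19 in the study's methods, hg38 in the submitters' processing notes, which also name featureCounts and DESeq2) and deposited 1 table of read counts per gene, unnormalized. Annotation, strand and multi-mapping settings are not given in the sources used here. Columns were matched to samples by their names, with 0 columns unused. Members and gene lists were chosen with earlier results of these data known.

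The test ran on all genes of the table in edgeR 4.0.16 under R 4.3.3 (filterByExpr with minimum count 10 and total 15, TMM, quasi-likelihood test, group only, Benjamini-Hochberg over 13497 genes). Every adjusted p given comes from this test unless DESeq2 (1.42.0) is named. Standard errors are the log2 fold change over the square root of F. The biological coefficient of variation was 5.21%. The limit that 0 counts allow, 3 counts per library, covers counting error only. Chi-square per degree of freedom between libraries of a group was 3.88 to 7.60, above sampling noise for each pair. On simulated data (seed 11), 200 of 200 changed genes were called, with 1 false call. Changes were planted only in well-counted genes, well over 2-fold and with the same variation for every gene. The simulation therefore says nothing about calls of members with few counts or near 2-fold.

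The genes named are all members called, the 3 most abundant of each subfamily, all Fat and Celsr genes tested, and, of each partner list, genes called and the 2 most abundant. Setdb1, Cdh23, Dchs2, single marker genes, members not tested and the other Pcdhb and Pcdhg genes were named after their values were seen. Alternatives were other scalings (DESeq2's size factors, upper quartile, library totals), dropping the low-count filter, requiring 10 counts or more in all libraries, each library left out, the replicate number as a block, DESeq2 and a test against a fold change of 1.5. No sequences are given, since the symbols are in mouse style and the reference at hand is human. Abundance here means normalized CPM, which is not corrected for gene length, so it served to choose genes and not to compare transcript levels between them.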

Additional observations from a re-analysis of the deposited data

How the results depend on the processing

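The numbers of members called stayed within 1.5 times the 7 lower and 6 higher under every alternative except at least 10 counts in every library, which left 4 lower, 0 higher and, with no fold threshold, 3 higher. That filter drops 9 of the 13 called members, which have under 10 counts in a library. The 3 other scalings lost and gained 0 of the 13. Without a low-count filter Pcdh18 was lost and Dsc2 and Pcdh15 were gained. With each library left out, 6 to 7 members were lower and 5 to 7 higher, and 7 to 9 each way with no fold threshold. Pcdhga11 was gained without WT 3. DESeq2 called 6 lower and 7 higher, and the test against a fold change of 1.5 called 5 and 5. The difference of summed levels (KD minus WT, normalized CPM) ranged from −10.97 to −9.786 for the Pcdhb cluster and from 11.08 to 19.4 for the Pcdhg cluster. Replicate numbers did not pair the libraries (correlations of same-numbered deviations 0.0421, −0.0147 and −0.0214), and with the replicate block 6 members were lower and 6 higher, Pcdh18 being lost (adjusted p = 0.0622, edgeR), while Krt14 was also lost (adjusted p = 0.249). The direction reversed for Krt14 without WT 3 (log2 fold changes −2.09 to 0.49 over the libraries left out) and for 2 members not past the test, Pcdh7 without WT 3 (0.05) or KD 3 (range −0.428 to 0.0814) and Pcdhgb7 without KD 2 (−0.43 to 0.88). Of values near 0, Pcdhgc4 reversed with DESeq2 (0.0071), its size factors (0.0057) and without WT 2, KD 1 or KD 2 (−0.43 to 0.44), Hnrnpu with upper quartile scaling (−0.0126) and without WT 1 (−0.0165 to 0.0559), and Rad21 without WT 2, WT 3 or KD 3 (−0.058 to 0.0236). The cause was not tested. The 50 members not tested are limited by their depth.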
